A study of Mus musculus with 12 samples.

Results

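Open chromatin in EF cells cultured with IGF1 was set against that in untreated EF cells, using ATAC-seq peak lists of mouse cells that the labels call MSCLCs. Peaks on the 19 autosomes and the X chromosome that overlapped by 1 bp or more in any of the 12 libraries were merged into 153346 regions, and 96223 of these were called in at least 1 of the 4 compared libraries. A region was counted as gained when both EF_IGF1 libraries called it and neither EF library did, and as lost in the reverse case. This rule gave 4135 gained regions, 4.30% of the 96223, and 3191 lost regions, 3.32%. The rule fixes these counts and the calls in the 4 libraries, so they are given as a description.

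The EF_IGF1 group held replicate 1 (title S_220_IGF1) and replicate 2 (S_221_IGF1), and the EF group held replicate 3 (S_220_0) and replicate 4 (S_221_0), all sequenced on flowcell BSF_1013. The cell lines S_220 and S_221 therefore each occurred once per group. Outside the comparison were 1 EF_IGF1_xeno library of line S_221, a name the labels do not explain, and EF replicates 1 (S_220) and 2 (S_221) of flowcell BSF_0654, together with 1 Wt_IGF1 and 4 Wt libraries. The title of the series ties the cells to the fusion gene EWS::FLI1 and to bone mesenchymal stem cells, and its design text names WT, EFPrx1, ha-EFPrx1 and hr-EFPrx1 cells. The labels and design text do not say which group each name refers to, what drives the fusion, how much IGF1 was given and for how long, or whether the lines came from separate animals. The spread between 2 libraries may therefore be technical only. Cells were lysed with digitonin in the transposase mix and sequenced as single-end reads, per the labels' protocol.

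IGF1 binds the receptor tyrosine kinase IGF1R, whose adaptors IRS1 and IRS2 recruit PI3K and activate AKT, a pathway that promotes growth and, in mesenchymal precursors, the formation of fat cells. EWS::FLI1 is the driver of human Ewing sarcoma and in human cells opens chromatin at GGAA repeats. ATAC-seq marks DNA that a transposase can reach, mostly gene starts and enhancers. The libraries are bulk, so fewer cells with an open site and less opening per cell cannot be told apart.

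The authors' lists held 59325 and 63506 peaks in EF_IGF1 replicates 1 and 2, against 52823 and 67340 in EF replicates 3 and 4. The means of 61416 ± 2956 and 60082 ± 10265 (SD, n = 2 each) did not differ beyond the spread (exact permutation test, two-sided, p = 1, where 0.333 is the smallest p that 2 against 2 libraries allow). Read depth is unknown, and the lists differ in background: the background count per peak that fold and −log10 p imply under a Poisson model had a genome-wide floor of 1.56 and 1.47 reads in EF_IGF1, against 1.13 and 1.34 reads in EF. Mesenchymal gene starts were called alike in all 4 libraries, 6 of the 7 with a start in the reference (Prrx1, Twist1, Twist2, Col1a2, Cd44 and Runx2), and 0 of 4 blood and 0 of 2 skeletal muscle starts were called. Of 3 endothelial starts, neither EF_IGF1 library called any, EF replicate 3 called Kdr, and EF replicate 4 called Kdr and Tek. Of 3 epithelial starts, both EF_IGF1 libraries and EF replicate 4 called Krt8, and EF replicate 3 called none. Of 2 neural starts, all 4 libraries called Tubb3.

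The library titled S_220_IGF1 went against its line name. It shared 40.6% of the regions called in either library with EF replicate 3 of line S_220, but 59.9% with EF replicate 4 of line S_221 and 66.1% with EF_IGF1 replicate 2. The untreated S_220 libraries of the 2 flowcells, EF replicates 1 and 3, shared 61.9%. The pattern of both EF_IGF1 libraries plus EF replicate 4, without EF replicate 3, held 13143 regions, whereas that of both EF_IGF1 libraries plus EF replicate 3, without EF replicate 4, held 761. Both EF_IGF1 libraries were thus nearer to the untreated S_221 library than to the untreated S_220 library, and the origin of the library labelled S_220 was not tested. Every gained and lost call rests on that library as well. The counts over all members, the calls in other libraries, and most gene lists are given also for the pair of line S_221 alone or with EF_IGF1 replicate 1 left out. The promoter windows, the single regions and the 1 Mb windows are given for the full rule only.

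**Figure D1:**
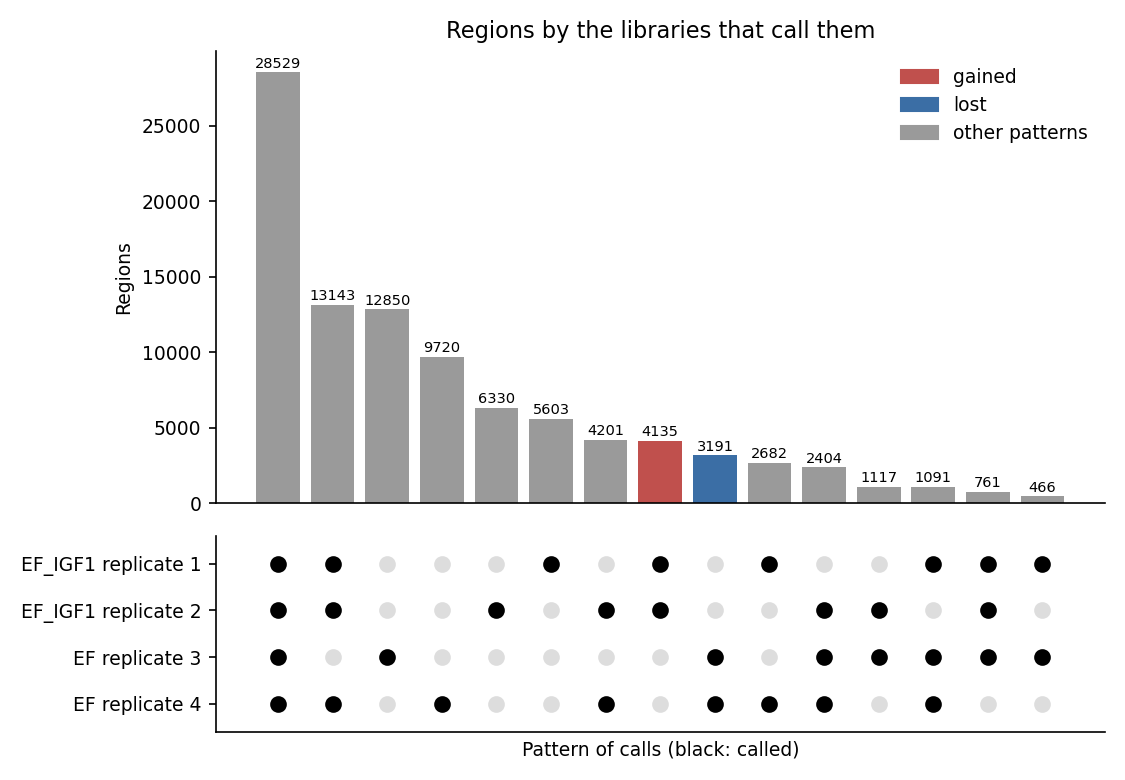
Bars give the number of regions (vertical axis) for each of the 15 patterns of calls over the 4 compared libraries, and black dots below a bar name the libraries that call those regions. The 28529 regions called in all 4 libraries form the tallest bar, the 4135 gained regions are in red and the 3191 lost regions in blue.

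Within each line the counts were several times larger, and their balance was opposite. In line S_220, 25563 regions were called in the EF_IGF1 library alone and 19562 in the EF library alone, 33.6% and 25.7% of the 75972 called in either. In line S_221, 12343 regions were gained (16.0% of 77304) and 16684 were lost (21.6%). Gained minus lost regions therefore came to 6001 in S_220 and to -4341 in S_221. Only 16.2% of the S_220 gains and 33.5% of the S_221 gains were shared with the other line. Of the regions gained in S_220, 2682 were lost in S_221, while 1117 went the other way. Every region gained or lost under the full rule is by construction also gained or lost in each pair. The pair counts of genes and lists below therefore contain those of the full rule and are not a separate test. The same holds where a library is left out.

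Promoter sequences show the kinds of gene start that were gained and lost. Windows of 300 bases, 250 before to 50 after each start, were taken from RefSeq (GRCm38.p6) for 21045 starts. Gained regions overlapped 67 windows of 65 genes, and lost regions overlapped 256 windows of 236 genes. By comparison, 11616 windows were called in at least 1 of the 4 libraries, and 9853 overlapped a region called in all 4. Most called gene starts were thus called in all 4 libraries. Printed 5′ to 3′ on the gene's strand are 4 gained and 4 lost windows of genes from the lists described later, with capitals for every match, on both strands, to AP-1 TGANTCA, TEAD GGAATG, C/EBP TTGCNNAA, ETS CCGGAAGT, the GGAA repeat GGAAGGAA, RUNX TGTGGT and SP/KLF GGGCGG. The gained ones are those of Pparg, the master regulator of fat cell formation, at chr6:115421816-115422115 (plus strand), Cdkn1a, which encodes the cell cycle inhibitor p21, at chr17:29090729-29091028 (plus strand), Bgn, which encodes the matrix proteoglycan biglycan, at chrX:73483351-73483650 (plus strand), and Runx3, a transcription factor of cartilage and lymphocytes, at chr4:135120395-135120694 (plus strand).
Pparg: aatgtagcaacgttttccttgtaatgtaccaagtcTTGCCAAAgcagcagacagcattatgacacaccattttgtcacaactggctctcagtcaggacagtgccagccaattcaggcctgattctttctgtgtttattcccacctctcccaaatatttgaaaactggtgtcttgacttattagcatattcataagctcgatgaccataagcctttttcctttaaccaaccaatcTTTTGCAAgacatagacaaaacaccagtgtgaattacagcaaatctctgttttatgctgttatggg
Cdkn1a: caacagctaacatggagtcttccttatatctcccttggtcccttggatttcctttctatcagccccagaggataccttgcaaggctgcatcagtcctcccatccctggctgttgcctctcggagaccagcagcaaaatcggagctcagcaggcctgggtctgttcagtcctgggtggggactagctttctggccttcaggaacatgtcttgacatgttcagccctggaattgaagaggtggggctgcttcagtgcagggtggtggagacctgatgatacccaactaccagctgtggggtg
Bgn: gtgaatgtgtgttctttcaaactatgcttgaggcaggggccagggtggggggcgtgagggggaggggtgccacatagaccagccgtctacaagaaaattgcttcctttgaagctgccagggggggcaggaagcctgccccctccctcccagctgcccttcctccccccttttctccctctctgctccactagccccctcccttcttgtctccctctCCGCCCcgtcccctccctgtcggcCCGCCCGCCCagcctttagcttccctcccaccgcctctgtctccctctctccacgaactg
Runx3: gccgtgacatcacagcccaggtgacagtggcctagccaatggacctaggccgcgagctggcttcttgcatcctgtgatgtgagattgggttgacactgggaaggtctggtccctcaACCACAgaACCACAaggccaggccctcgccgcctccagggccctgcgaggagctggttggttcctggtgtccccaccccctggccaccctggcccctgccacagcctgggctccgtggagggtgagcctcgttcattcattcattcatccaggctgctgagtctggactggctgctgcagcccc
The lost ones are those of Cxcl12, the chemokine of the bone marrow niche, at chr6:117168285-117168584 (plus strand), Prickle2, a component of planar cell polarity, at chr6:92706135-92706434 (minus strand), Tbx4, a hindlimb transcription factor, at chr11:85896515-85896814 (plus strand), and Igf2r, the receptor that clears IGF2, at chr17:12769657-12769956 (minus strand).
Cxcl12: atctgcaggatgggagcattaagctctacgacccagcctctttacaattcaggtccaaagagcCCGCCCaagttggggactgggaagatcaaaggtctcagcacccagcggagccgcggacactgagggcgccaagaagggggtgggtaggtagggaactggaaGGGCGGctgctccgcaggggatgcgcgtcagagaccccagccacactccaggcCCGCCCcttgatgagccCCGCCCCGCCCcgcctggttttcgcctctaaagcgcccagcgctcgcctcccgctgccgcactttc
Prickle2: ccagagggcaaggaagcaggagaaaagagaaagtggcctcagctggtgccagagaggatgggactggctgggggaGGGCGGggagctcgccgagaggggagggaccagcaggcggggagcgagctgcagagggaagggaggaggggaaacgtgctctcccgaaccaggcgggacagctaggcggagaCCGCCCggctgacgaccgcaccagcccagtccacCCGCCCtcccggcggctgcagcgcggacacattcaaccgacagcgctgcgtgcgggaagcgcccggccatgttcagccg
Tbx4: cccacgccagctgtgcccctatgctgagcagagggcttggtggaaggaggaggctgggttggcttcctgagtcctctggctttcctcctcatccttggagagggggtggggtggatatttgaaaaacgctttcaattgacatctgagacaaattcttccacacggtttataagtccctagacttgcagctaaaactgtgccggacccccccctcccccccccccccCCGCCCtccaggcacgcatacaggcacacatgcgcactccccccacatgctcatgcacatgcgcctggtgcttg
Igf2r: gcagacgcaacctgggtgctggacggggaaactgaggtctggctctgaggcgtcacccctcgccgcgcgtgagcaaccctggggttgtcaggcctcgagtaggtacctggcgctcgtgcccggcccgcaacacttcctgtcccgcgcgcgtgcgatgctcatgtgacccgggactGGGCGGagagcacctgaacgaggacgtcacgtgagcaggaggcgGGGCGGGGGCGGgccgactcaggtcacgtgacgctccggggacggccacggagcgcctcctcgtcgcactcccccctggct

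The 2 sets of promoters differed in base composition. Median GC content was 54% in gained and 64.2% in lost windows, against 56.7% over all 21045, and the median number of CpG dinucleotides was 6 in gained, 22 in lost and 13 in all windows. Windows called in at least 1 of the 4 libraries had a median GC of 61.7% and 22 CpG. In GC and CpG, lost windows were thus close to called promoters and gained windows lay below them. SP/KLF motifs, which are GC-rich, were present in 37.3% of gained windows (95% Clopper-Pearson interval 25.8 to 50%) and in 65.2% of lost windows (59.1 to 71.1%), against 67% of windows called in at least 1 of the 4 libraries and 46.7% of all. TEAD motifs were present in 22.4% of gained (13.1 to 34.2%) and 9.77% of lost windows (6.42 to 14.1%), against 13.5% of all. C/EBP motifs were present in 17.9% of gained (9.61 to 29.2%) and 7.81% of lost windows (4.84 to 11.8%), against 10.3% of all, and the Pparg window held 2 of them. RUNX motifs, 2 of which lie in the Runx3 window, were present in 13.4% of gained, 14.5% of lost and 14.7% of all windows. AP-1 motifs were in 7.46% of gained, 5.47% of lost and 7.04% of all windows. The GGAA repeat was in 5.97% of gained, 3.52% of lost and 3.46% of all. ETS motifs were in 2.99% of gained (0.364 to 10.4%), 1.56% of lost (0.427 to 3.95%) and 5.2% of all. Of windows called in at least 1 of the 4 libraries, 8.69% held an ETS motif, above the interval of lost windows and inside that of gained windows. Matches are a description of letters and were not tied to binding, and the part of base composition in them was not tested.

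At the Pparg start, the deposited −log10 p was 13 in EF_IGF1 replicate 1 and 15.6 in EF_IGF1 replicate 2, with no peak in EF replicates 3 and 4. Its fold over local background, as the authors' caller gave it, was 7.03 and 7.53 in the EF_IGF1 libraries, and the same region was called in Wt_IGF1 and Wt replicate 4. This window lies inside the gene, whose annotated start is at position 115360879 of chromosome 6. The Cdkn1a start had a −log10 p of 22.2 and 13.8 in EF_IGF1 replicates 1 and 2, none in either EF library, and was called outside the comparison in EF_IGF1_xeno alone. The Runx3 start, with 17.6 and 34.1 in EF_IGF1, showed the same calls. Of the 8 regions of Cdkn1a, 2 were called in all 4 libraries, so the calls at this start do not describe the whole gene. Bgn had 17.9 and 15.1 in EF_IGF1 replicates 1 and 2 and was called also in Wt_IGF1 and EF_IGF1_xeno. Among the lost starts, Prickle2 was without a peak in both EF_IGF1 libraries and had a −log10 p of 68.0 in EF replicate 3 and 38.1 in EF replicate 4. Cxcl12 had 10.8 and 21.2 in EF replicates 3 and 4, Tbx4 had 12.9 and 24.5, and Igf2r had 9.6 and 6.5, all without a peak in EF_IGF1. The Tbx4 start was called in no other library of the series. Outside the rule, EF_IGF1_xeno called the regions of 36 of the 65 gained promoter genes (55.4%) and of 45 of the 236 lost ones (19.1%), and EF replicate 1 called those of 3 (4.62%) and 197 (83.5%). Wt_IGF1 called 220 of the 236 lost promoter genes (93.2%). Bgn, Tbx4 and, further on, Trpc6 and Gm6569 fall outside the naming rule and were chosen after their calls were seen.

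Gained regions were shorter than lost ones and lay less often at gene starts. Their median width was 423 bp, against 515 bp for lost regions and 816 bp for regions called in all 4 libraries. Regions were merged over all 12 libraries, so one called in more libraries can be wider by construction. Gained regions were called in 3.45 libraries on average, lost ones in 5.07 and those called in all 4 in 10. The part of this in the widths and in the shares below was not tested. Gained regions lay within 1 kb of a gene start in 5.34% of cases and lost regions in 8.9%, against 11.8% of the 96223 regions and 29.2% of those called in all 4. Gained regions lay inside a protein-coding gene in 46.5% of cases and lost regions in 59.2%, against 55.6%. Near a gene start or gene end (1 kb or less) lay 8% of gained and 12.1% of lost regions, and this order turned round in the S_220 pair (8.07% of gained, 7.87% of lost), without EF replicate 3 (8.35% and 7.45%) and without EF replicate 4 (8.07% and 7.72%). They also stood low in their own lists: the median percentile of −log10 p was 30.2 and 28 for gained regions in EF_IGF1 replicates 1 and 2, and 39.2 and 27.3 for lost regions in EF replicates 3 and 4. Regions near the calling threshold of a list can be called in 1 library and missed in another, and no signal values below threshold were used here.

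Calls in the 8 other libraries were not used by the rule. EF_IGF1_xeno called 47.3% of gained regions (95% Clopper-Pearson interval 45.7 to 48.8%) and 5.77% of lost ones (4.98 to 6.63%), against 41.9% of all 96223. EF replicate 1, untreated and of line S_220, called 6.67% of gained and 72.9% of lost regions, against 46% of all. EF replicate 2, untreated and of line S_221, called 1.81% and 12.6%, against 26.1%. The lost regions were thus open in the untreated S_220 library of the other flowcell more often than in that of S_221, whose list of 27332 peaks is also the shorter. Wt_IGF1 called 33.3% of gained and 69.9% of lost regions, against 59.8%, so most lost regions were open in Wt cells labelled IGF1. Regions called in Wt_IGF1 but not in Wt replicate 3, both titled BM, made up 665 gained (16.1%) and 748 lost regions (23.4%), and the reverse 59 (1.43%) and 47 (1.47%), beside lists of 83718 and 57324 peaks. The Wt libraries ran from 0.242% to 23.4% for gained and from 2.38% to 63.8% for lost regions. Of the gained regions 1125 (27.2%) were called in no other library and 1068 (25.8%) in EF_IGF1_xeno alone, and of the lost regions 185 (5.8%) were called in no other.

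**Figure D2:**
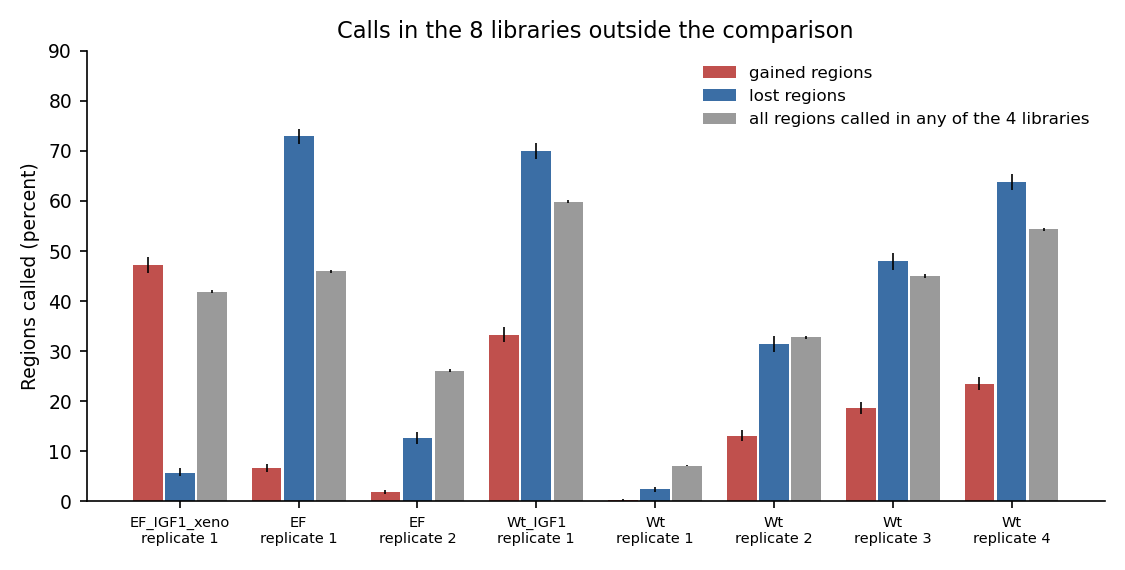
Bars give the percent of gained (red), lost (blue) and all regions called in any of the 4 compared libraries (grey) that each of the 8 other libraries calls, with exact 95% binomial intervals that cover counting only. EF_IGF1_xeno is the library that calls more gained (47.3%) than lost (5.77%) regions, and the other 7 call more lost than gained regions.

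With EF_IGF1 replicate 1 left out, 10465 regions were called in EF_IGF1 replicate 2 and in neither EF library, and 4282 in both EF libraries and not in EF_IGF1 replicate 2. EF_IGF1_xeno then called 22.9% of gained and 10.7% of lost regions, and EF replicate 1 called 5.19% and 72.4%. In the pair of line S_221 alone, EF_IGF1_xeno called 22.9% of gained and 8.39% of lost regions, and EF replicate 1 called 13% and 28.3%. In both readings EF_IGF1_xeno called more gained than lost regions, but its 22.9% of gained regions lay below the 41.9% it called of all regions, whereas the 47.3% under the full rule lay above.

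The strongest gained region, by its lower percentile over both EF_IGF1 libraries, lay 11290 bp from Sall1, a zinc-finger gene of limb and kidney development, at chr8:89015327-89015952. Its −log10 p was 101.0 in EF_IGF1 replicate 1 and 79.9 in EF_IGF1 replicate 2, in percentiles 97.1 and 94.9 of those lists, with no peak in EF replicates 3 and 4. It was called also in Wt_IGF1, Wt replicate 4 and EF_IGF1_xeno. The 1 Mb window that holds it (89 to 90 Mb) had 13 gained and 0 lost of 26 regions, with 19 and 24 regions called in EF_IGF1 replicates 1 and 2, against 0 and 4 in EF replicates 3 and 4. Others of the 10 strongest lay in St6galnac3, a sialyltransferase gene, with 68.8 and 84.1 in EF_IGF1, and in Tafa2, which encodes a secreted brain peptide, with 109.3 and 58.6. Among the 10 strongest lost regions was one in Bambi, which encodes a decoy receptor of TGF-beta signalling, with 55.5 and 62.4 in EF replicates 3 and 4 and no peak in EF_IGF1. All 8 outside libraries called the Bambi region, EF_IGF1_xeno included.

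Arhgap42, a GTPase-activating protein gene active in smooth muscle, had more gained regions than any other gene, with 19 gained and 0 lost of 58. The strongest lay 81512 bp from the gene at chr9:9320539-9321185, with a −log10 p of 49.6 and 51.6 in EF_IGF1 replicates 1 and 2 and no peak in EF replicates 3 and 4. In its 1 Mb window on chromosome 9 (9 to 10 Mb), EF_IGF1 replicates 1 and 2 called 63 and 79 regions, against 15 and 24 in EF replicates 3 and 4, and EF_IGF1_xeno called 37. EF replicates 1 and 2 called 12 and 7 there, and the Wt and Wt_IGF1 libraries 0 to 25. Line S_221 alone gave 35 gained and 1 lost region for the gene, and the 35 contain the 19 of the full rule. Cntn5, a neural adhesion gene in the same window, had 4 gained and 0 lost of 25. In the neighbouring megabase 12 regions were gained and 1 was lost of 69, 4 of them at the calcium channel gene Trpc6. On chromosome 15, the window at 74 to 75 Mb had 25 gained and 0 lost of 98 regions, with 76 and 82 called in EF_IGF1 replicates 1 and 2, against 31 and 46 in EF replicates 3 and 4. Its genes include Adgrb1, an adhesion receptor gene with 3 gained regions, and Psca, a surface antigen gene with 2. The adjoining window at 73 to 74 Mb had 21 gained and 0 lost of 124. Of the 21, 9 were at the unnamed gene model Gm6569 and 4 at Ptk2, the focal adhesion kinase gene. Yap1, the Hippo pathway coactivator that the title of the series names, had 0 gained and 0 lost of 12 regions.

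With unnamed gene models such as Gm6569 left out, Gabbr2, a GABA-B receptor gene, came next in gained regions (11 gained and 0 lost of 24). Slc24a3, St6galnac3, Igsf21, Tafa5, Cpne8 and Pax2 followed with 6 each and 0 lost. Igsf21 (9 regions), Pax2 (17) and Cpne8 (22) had 0, 0 and 2 regions that were called in all 4 libraries. Line S_221 alone gave 20 gained and 0 lost for Gabbr2, and 23 gained and 0 lost for Tafa5. On the lost side Arhgap26, another GTPase-activating protein gene, had 10 lost and 2 gained of 57 regions. Trabd2b, a protease gene that cleaves WNT ligands, had 9 lost and 0 gained of 45, Prickle2 8 and 0 of 24, Galnt17 7 and 0 of 18, and Atxn1 7 and 0 of 47. Line S_221 alone gave 29 lost and 0 gained for Trabd2b and 14 lost and 0 gained for Prickle2. These losses contain the 9 and 8 of the full rule. In the 1 Mb window of Trabd2b, EF_IGF1 replicates 1 and 2 called 14 and 16 regions, against 30 and 49 in EF replicates 3 and 4, while EF_IGF1_xeno called 15. In that of Prickle2, EF_IGF1 replicates 1 and 2 called 22 and 9, against 41 and 27 in EF replicates 3 and 4, and EF_IGF1_xeno called 8.

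**Figure D3:**
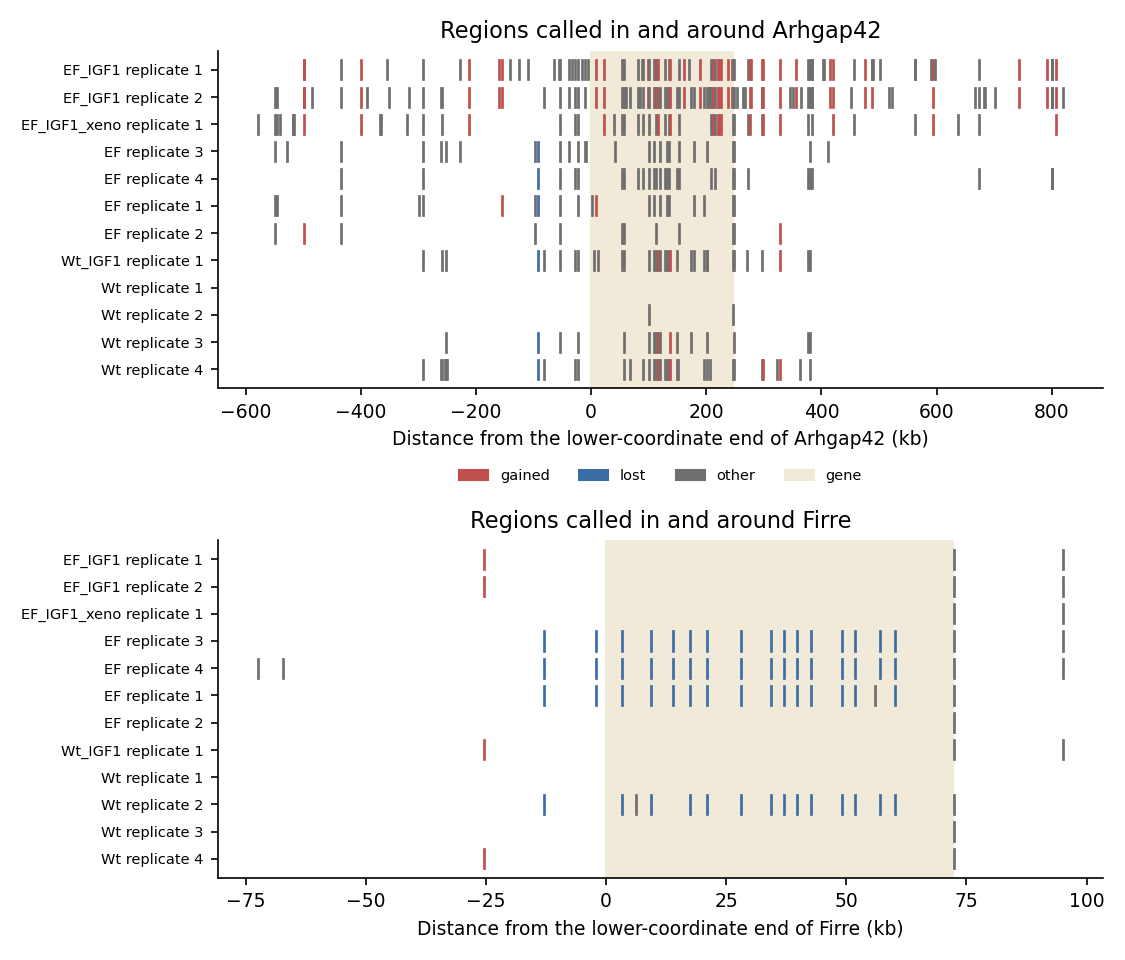
Ticks mark regions called in each of the 12 libraries (rows, EF_IGF1 at the top) by distance in kb from the lower-coordinate end of Arhgap42 (top panel) and Firre (bottom panel), in red where gained, blue where lost and grey otherwise, with the gene shaded. Both EF_IGF1 rows hold every red tick over and beyond Arhgap42. Some of these are also in EF_IGF1_xeno, Wt_IGF1, Wt replicates 3 and 4 and EF replicates 1 and 2. The blue ticks within Firre are absent from both EF_IGF1 rows. They are absent also from EF replicate 2, EF_IGF1_xeno, Wt_IGF1 and Wt replicates 1, 3 and 4.

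The window with most lost regions was on the X chromosome, at 50 to 51 Mb, where 16 of 31 regions were lost and 2 gained. No protein-coding gene lay within 100 kb of the 16, and the reference places there the long noncoding RNA gene Firre, known for a repeat-rich locus that folds the inactive X chromosome. Over Firre, EF_IGF1 replicates 1 and 2 called 1 region each, against 15 each in EF replicates 3 and 4. Outside the comparison, EF replicate 1 and Wt replicate 2 called 15 each, while EF replicate 2, EF_IGF1_xeno, Wt_IGF1 and Wt replicates 3 and 4 called 1 each and Wt replicate 1 called 0. The noncoding gene 4933407K13Rik, which lies at the other folding locus of the inactive X, showed the same split, with 1 region in each EF_IGF1 library, against 7 and 6 in EF replicates 3 and 4. Xist, whose RNA coats the inactive X, had 1 region in each EF_IGF1 library, against 2 in each of EF replicates 3 and 4, and 0 in EF_IGF1_xeno and EF replicate 2. Firre, 4933407K13Rik and Xist were chosen after their calls were seen, and the sex of the animals and the state of the X chromosomes were not tested. Pls3, an actin-bundling gene beside 4933407K13Rik, had 6 lost regions of 12, and 1 of these overlapped the gene itself. Without the Firre and 4933407K13Rik regions, 3.57% of X chromosome regions were lost, against 4.45% with them.

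Gains and losses were uneven between chromosomes. On chromosome 15, 6.73% of regions were gained and 2.2% lost, and line S_221 alone gave 21.1% gained and 16.4% lost there although losses led genome-wide. The 28529 regions called in all 4 libraries are neither gained nor lost. Their −log10 p was ranked on a scale where 50 is the middle of the list. Chromosome 15 had median ranks of 55.5 and 54.1 in EF_IGF1 replicates 1 and 2, against 48.1 and 50.6 in EF replicates 3 and 4. Its share of a library's own peaks was 5.85% and 5.73% in EF_IGF1 and 6.01% in EF_IGF1_xeno, against 5.03% and 5.11% in EF replicates 3 and 4, 4.92% and 5.46% in EF replicates 1 and 2, and 3.9 to 4.57% in the 5 Wt and Wt_IGF1 libraries. Chromosome 18 was the reverse, with 2.4% gained and 5.85% lost, and median ranks of 45.9 and 47.5 in EF_IGF1 against 48.9 and 55.9 in EF. It held 2.5% and 2.67% of the peaks in EF_IGF1 and 2.99% in EF_IGF1_xeno, against 3.2% and 3.2% in EF replicates 3 and 4, and 3.02 to 3.53% in the other libraries. Ranks and peak shares of the 4 compared libraries come from the lists that set the gained and lost calls. They are therefore not an independent test. Whole-chromosome copy number was not tested.

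**Figure D4:**
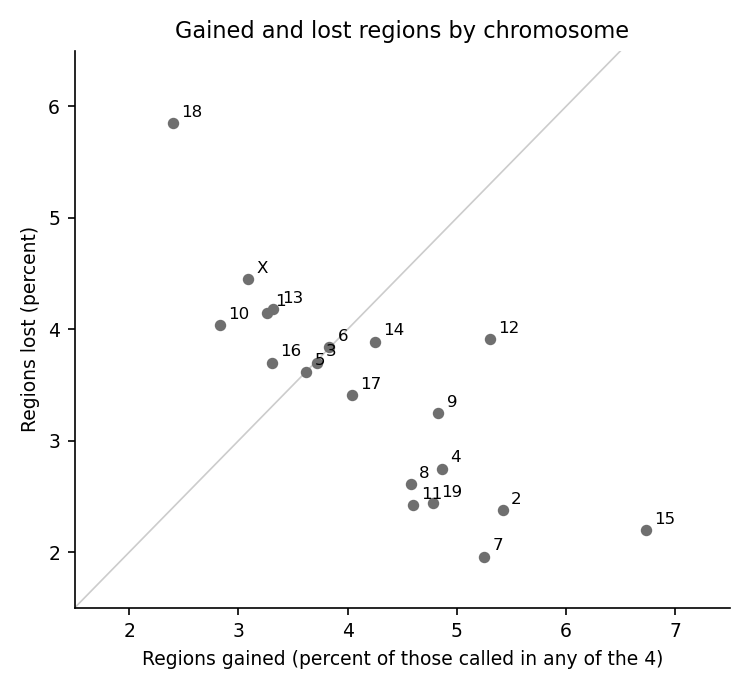
Each point is a chromosome, placed by the percent of its regions gained (horizontal axis) and lost (vertical axis), with a line of equal shares. Chromosome 15 lies farthest right at 6.73% gained, and chromosome 18 is highest at 5.85% lost.

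In the IGF pathway, 9 of 182 regions were gained and 7 lost (4.95% and 3.85%), against 4.2% and 3.27% of all regions with a gene within 100 kb, and the median over 24 lists was 4.79% and 3.76%. Irs2, an adaptor of the IGF1 and insulin receptors, had 3 gained and 0 lost of 29, with the strongest 15653 bp away (−log10 p 13.6 and 10.7 in EF_IGF1, no peak in EF). Irs1, its paralogue, had 0 gained and 0 lost of 8. The receptor genes had losses, with Insr 2 of 10 and Igf1r 1 of 26, and 0 gained. Igf1, the ligand gene, had 1 lost region 52039 bp away, with 22.9 and 20.1 in EF replicates 3 and 4, and this region was called in 7 of the 8 outside libraries. Igf2r had 2 gained and 1 lost of 17 regions, the lost one at its start. Downstream, PI3K, AKT and FOXO genes had 13 gained and 10 lost of 319 regions (4.08% and 3.13%). Pik3r1, the regulatory subunit of PI3K, held both a gained region inside the gene (35.3 and 37.3 in EF_IGF1) and a lost one (11.3 and 10.5 in EF). In the S_221 pair alone, where losses led genome-wide, losses outnumbered gains in both lists, with 23 gained and 30 lost for the IGF list and 36 and 63 for the PI3K list.

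Adipogenic genes had 27 gained and 2 lost of 232 regions (11.6% and 0.862%). Gains lay at 13 of the 25 genes that had a region, where 2792 of all 16924 genes with a region (16.5%) had a gain. A gene with more regions has more chances of a gain. The list held more regions per gene (232 at 25 genes) than all genes did (86413 at 16924). The part of this in the shares of genes was not tested. Cebpb, an early factor of fat cell formation, had 5 gained and 0 lost of 24. Lep, the gene of the fat hormone leptin, had 4 gained and 0 lost of 14, and the strongest, inside the gene, had a −log10 p of 31.6 and 25.2 in EF_IGF1 and no peak in either EF library. Zfp423, a preadipocyte factor, had 4 gained of 18 (strongest 59.5 and 33.2), and Lpl, the lipoprotein lipase gene, had 3 of 6 (strongest 50.4 and 51.9). The strongest Lpl region was called in 6 other libraries, EF replicate 1 among them. Adipoq, the adiponectin gene, had 0 gained and 0 lost of 3 regions, and Cebpa, a later factor of fat cell formation, had 0 and 0 of 6, though 5 of the 6 were lost in the S_220 pair alone. Of 5 fat cell gene starts, EF_IGF1 replicates 1 and 2 called 1 and 2, and EF replicates 3 and 4 called 1 and 2. The annotated Pparg start was called in both EF_IGF1 libraries and in EF replicate 4. Of the 27 gained regions, EF_IGF1_xeno called 15, Wt_IGF1 11 and EF replicate 1 called 3. Over all gained regions these libraries called 47.3%, 33.3% and 6.67%, and a difference of the list from these shares was not tested. With EF_IGF1 replicate 1 left out the list had 47 gained and 5 lost regions, beside 10465 and 4282 over all regions. The S_221 pair alone gave 51 gained and 42 lost, beside 12343 and 16684 over all regions. The 51 and 42 contain the 27 and 2 of the full rule by construction, so they are not a separate test of the list. Without EF replicate 3 the list had 27 gained and 34 lost, beside 4896 and 12911. Losses thus led over all regions in the S_221 pair and without EF replicate 3.

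HOX genes, which set position along the body, had gains and 0 losses, with 7 of 57 regions of the posterior HOX list gained (12.3%) and 6 of 61 of the anterior and central list (9.84%). Hoxc13 had 2 gained of 11, the stronger with 70.0 and 26.7 in EF_IGF1 and no peak in EF, and Hoxb6 and Hoxb7 had 2 of 3 each. Others stood low in the lists of EF_IGF1 replicates 1 and 2, with percentiles of 4.98 and 16.7 at Hoxb9 and 20.9 and 18.5 at Hoxc12. Of the 7 posterior regions EF_IGF1_xeno called 1 and Wt_IGF1 1, and of the 6 anterior and central ones 3 and 0. Over all gained regions these libraries called 47.3% and 33.3%. The S_221 pair alone gave 10 gained and 9 lost regions for the posterior list and 14 and 4 for the anterior and central list. These gains contain the 7 and 6 of the full rule by construction. Over all regions that pair had 12343 gained and 16684 lost. Without EF replicate 4 the posterior list had 11 gained and 13 lost, beside 17278 and 16041 over all regions. Genes known as EWS::FLI1 targets in human Ewing sarcoma had 19 gained and 6 lost of 235 (8.09% and 2.55%). Prkcb, a protein kinase C gene, had 4 gained of 9 (strongest 31.6 and 36.9), Sox6, a cartilage factor, 4 of 11, and Vrk1, a chromatin kinase gene, 4 of 13. Nkx2-2 had 1 gained region of 2, and Nr0b1 had no region in the 4 libraries. Line S_221 alone gave 51 gained and 33 lost for these targets. Without EF replicate 3 they had 22 gained and 27 lost, beside 4896 and 12911 over all regions.

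WNT, hedgehog and BMP genes had 24 gained and 45 lost of 596 regions (4.03% and 7.55%), among them Gli2, a hedgehog effector, with 1 gained and 4 lost of 34, and Bmp7 with 3 gained and 1 lost of 8. Trabd2b and Prickle2 gave 17 of the 45 losses, and without these 2 genes the list had 24 gained and 28 lost of 527 (4.55% and 5.31%), an alternative chosen after seeing the data. Of the 45, EF replicate 1 called 32 and Wt_IGF1 34, and EF_IGF1_xeno called 3. Over all lost regions these libraries called 72.9%, 69.9% and 5.77%, and a difference of the list from these shares was not tested. Line S_221 alone gave 66 gained and 131 lost, beside 12343 and 16684 over all regions. Without EF_IGF1 replicate 1 the list had 50 gained and 52 lost, beside 10465 and 4282 over all regions. TGF-beta, FGF and PDGF genes had 10 gained and 18 lost of 285 (3.51% and 6.32%), with Smad3 at 2 and 3 of 33. Cyclic nucleotide phosphodiesterases had 9 gained and 16 lost of 219 (4.11% and 7.31%): Pde4d had 1 gained and 6 lost of 56, and Pde3a and Pde10a had 4 lost each and 0 gained. In the S_221 pair there were 30 gained and 70 lost for TGF-beta, FGF and PDGF genes and 20 and 50 for the phosphodiesterases. Mesenchymal stem and limb genes had 4 gained and 11 lost of 222 (1.8% and 4.95%), and 23 and 47 in the S_221 pair. Prrx1, the limb mesenchyme factor, had 3 lost and 0 gained of 20, though its start was called in all 4 libraries. Rarb, a retinoic acid receptor gene, had 1 gained and 6 lost of 40.

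**Figure D5:**
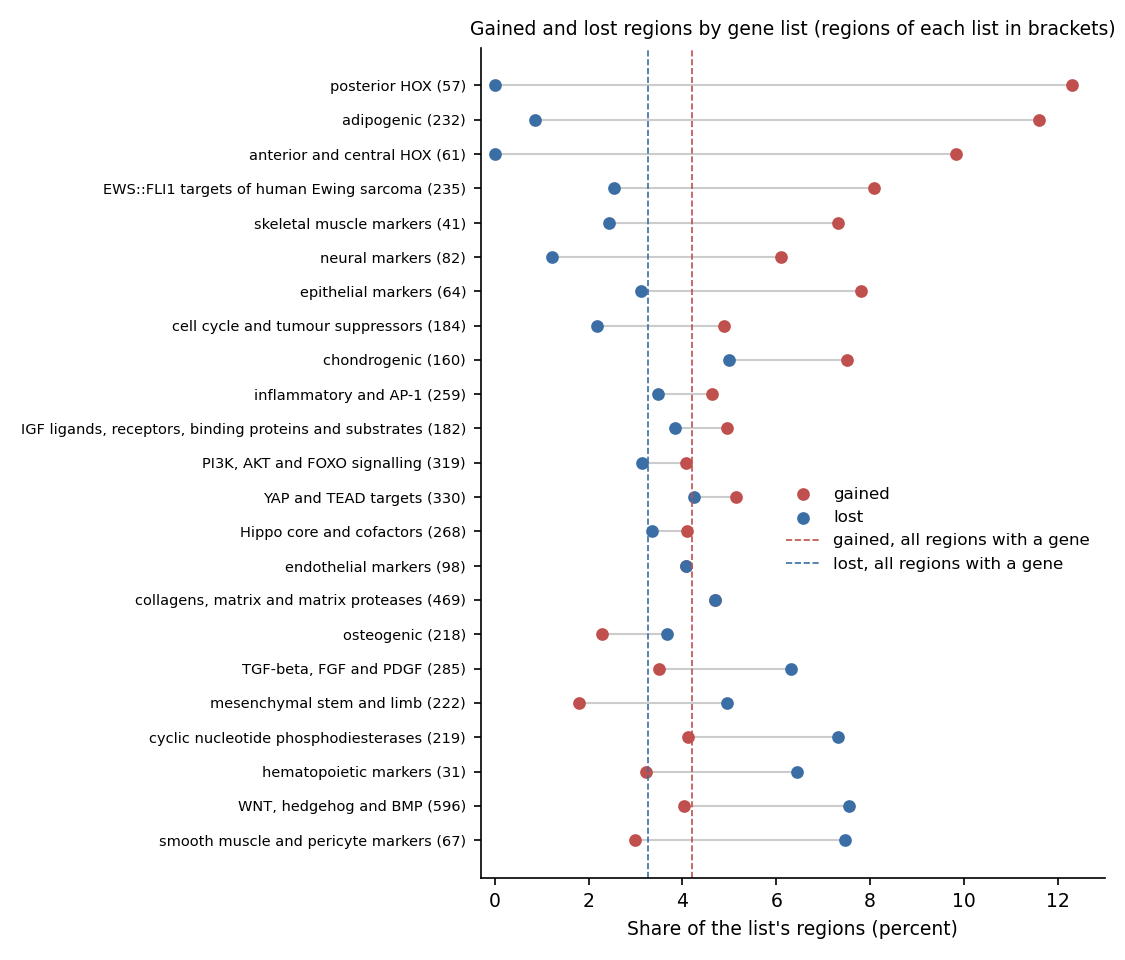
For each gene list described, points give the percent of its regions (number in brackets) that were gained (red) and lost (blue), ordered by the difference, with dashed lines at the 4.2% gained and 3.27% lost over all regions with a gene. Posterior HOX (12.3%) and adipogenic genes (11.6%) lie farthest right in red, and WNT, hedgehog and BMP genes (7.55%) farthest right in blue.

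Chondrogenic genes had 12 gained and 8 lost of 160 regions (7.5% and 5%), both above the background of 4.2% and 3.27%, and osteogenic genes 5 and 8 of 218, with Sox9 at 1 gained and 0 lost of 9 and Runx2 at 0 gained and 1 lost of 42. Hippo genes had 11 gained and 9 lost of 268. YAP and TEAD targets had 17 and 14 of 330, with Crim1 at 4 gained of 16 and Rbms3 at 5 lost of 35. Collagens and other matrix genes had 22 gained and 22 lost of 469. Inflammatory and AP-1 genes had 12 gained and 9 lost of 259, the prostaglandin synthase gene Ptgs2 accounting for 3 lost. Cell cycle genes had 9 gained and 4 lost of 184, and Cdkn2a had 0 and 0 of 7. The S_221 pair had 29 gained and 52 lost regions for Hippo genes and 40 and 72 for YAP and TEAD targets. Over all regions that pair had 12343 gained and 16684 lost. For chondrogenic genes it had 29 and 32, for osteogenic genes 27 and 42, and for matrix genes 68 and 93. Inflammatory and AP-1 genes had 30 and 40 there, and cell cycle genes 23 and 17. Among markers of other cell types, smooth muscle and pericyte genes had 2 gained and 5 lost of 67 (7.46% lost), endothelial genes 4 and 4 of 98, and blood genes 1 and 2 of 31 (6.45% lost). Epithelial genes had 5 gained (7.81%) and 2 lost of 64, skeletal muscle genes 3 gained (7.32%) and 1 lost of 41, and neural genes 5 gained (6.1%) and 1 lost of 82. These shares lie as far from the background as those of several lists above, on few regions each, and their part in the results above was not tested. In the S_221 pair, 9 regions were gained and 21 lost for smooth muscle and pericyte genes, and 9 and 23 for endothelial genes. Blood genes had 1 and 5 there, and epithelial genes 9 and 11. Skeletal muscle genes had 7 and 9 in that pair, and neural genes 15 and 10.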

How the data were processed

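ATAC-seq of 12 libraries was analysed from 1 peak list per library, so the authors called peaks per library. Per the submitters' processing notes, the peaks come from MACS2, without a version, on GRCm38.p3. No aligner, duplicate filter, transposase offset or caller option is given in the sources used here. Per the deposited values, each peak has a score (10 times its −log10 q, cut to a whole number), a fold over local background (a linear ratio), a −log10 p and a −log10 q, the usual logs of the p-value and the adjusted one. The lowest −log10 q of a list was 2.03 to 2.60.

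Peaks on the 19 autosomes and the X chromosome were merged with Python 3.11.15, pandas 2.3.3 and numpy 2.4.6, and the calls were checked on simulated lists. Regions were given to the nearest protein-coding gene within 100 kb (RefSeq, GRCm38.p6, which shares chromosome coordinates with the authors' build), and 567 of 567 list entries matched. The lists hold called peaks and no signal for uncalled regions, so regions were counted as called or not and single regions were not tested. Values per library were compared by exact permutation (scipy 1.17.1), and intervals are exact Clopper-Pearson intervals that cover counting error only. Named genes are the 12 with most regions in each direction, up to 4 per list, those of the 3 windows of 1 Mb with most gained or lost regions, and a set taken whatever its values, such as Yap1, Pparg and Prrx1; the 10 strongest regions in each direction were added. Unnamed gene models were left out of this choice of named genes. The gene lists, the members and the regions compared were chosen with earlier results of these data known. Replicates were numbered in accession order and the lines taken from the titles. Alternatives changed the peaks used, the region extent, the libraries and the gene distance. The results of some genes and of 1 gene list are not reported here.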

Additional observations from a re-analysis of the deposited data

Results flagged for a closer look

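The 2 lines moved in opposite directions in 4 measures between the EF_IGF1 and the EF library of the same line, a difference that was not tested since each line had 1 library a group. The number of peaks was higher in EF_IGF1 by 6502 in line S_220, whereas EF_IGF1 minus EF was -3834 in line S_221. Gained minus lost regions came to 6001 in S_220 and to -4341 in S_221, which follows from the number of regions each library calls. EF_IGF1 minus EF in the share of summits within 1 kb of a gene start was -1.2 percentage points in S_220 and 1.2 in S_221. For summits within 1 kb of either gene end it was -1.4 in S_220 and 1.1 in S_221.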

How the results depend on the processing

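Of 124 recomputed counts and shares over all members, 64 moved and 2 turned the sign. The other 58 stayed within 1.5 times the main count or within the 95% binomial interval of the main share. These 58 include the values for libraries paired by line, which by construction could not move. Gained minus lost regions came to -4341 in the S_221 pair alone and to 6001 in the S_220 pair, against 944, and to -8015 (without EF replicate 3) to 6183 when 1 of the 4 libraries was left out. Gained regions then ranged over 4896 to 17278 and lost regions over 4282 to 16041. The percent near a gene start or end ranged over 6.33 to 8.35 for gained and 7.45 to 10.9 for lost regions. EF_IGF1_xeno called 22.9 to 65.3% of gained and 1.67 to 12.9% of lost regions, and EF replicate 1 called 5.19 to 18.9% and 26.6 to 72.4%.

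In the S_220 pair 25563 regions were gained and 19562 lost, of the lost 7.87% lay near a gene start or end, EF_IGF1_xeno called 49.9% of gained and 4.65% of lost regions, and EF replicate 1 called 16% and 59.3%. In the S_221 pair 12343 were gained and 16684 lost, 6.6% and 7.53% lay near a gene start or end, EF_IGF1_xeno called 22.9% and 8.39%, and EF replicate 1 called 13% and 28.3%. With the top 20000 peaks of each library, 1587 regions were gained and 866 lost, 15.2% and 19.3% lay near a gene start or end, EF_IGF1_xeno called 72.8% and 24.1%, and EF replicate 1 called 11.8% of gained regions. Where peaks had to cover 50% of a region, gained minus lost came to 1810, the percent near a gene start or end to 9.29 and 10.2, calls in EF_IGF1_xeno to 42.8% and 4.3%, and calls in EF replicate 1 to 5.33% and 62.6%. Windows of 250 bp each side of summits put 11.3% of gained regions near a gene start or end, and EF_IGF1_xeno called 7.38% of lost regions. With 2 kb in place of 1 kb, 13% of gained and 15.5% of lost regions lay near a gene start or end. At a −log10 q of 5 or more, EF replicate 1 called 71.1% of lost regions. With all 4 EF libraries in the rule, which then includes EF replicate 1, it called 0% of gained and 98.3% of lost regions. Causes were not tested beyond what each construction fixes.

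Pairing the libraries by line, the replicate block of this design, gave the same 4135 gained and 3191 lost regions by construction. Read depth is unknown and calls turn on each list's threshold, so a region missing from a list was not called and is not shown to be closed. Of 770 list counts, 433 stayed within 1.5 times the main count and 337 moved, in settings that include each line's pair.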
